A study of Mus musculus with 18 samples.

Results

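The expression of 10 genes of the NF-kB system was followed in RNA-seq counts of mouse esophageal organoids. They were 4 subunit genes (Nfkb1, Nfkb2, Rel and Relb), 3 genes of the IkB family of inhibitors and cofactors (Nfkbia, Nfkbie and Nfkbiz), and 3 genes known as targets of the factor (Tnfaip3, Birc3 and Icam1). They were taken by symbol as 10 of the 24421 gene rows in each of 3 deposited count tables. All 10 were found in each table, and all 10 passed the filter on low counts in every comparison. An organoid is a culture in which epithelial cells grow as small rounded bodies inside a gel of matrix proteins. The 18 libraries all carried, as declared, Trp53-/-, Myc OE and sgCdkn2a, and the medium listed for all of them held 2 µM of A83-01, which blocks the kinase of type I TGF-beta receptors. One table held premalignant organoids with a control guide (sgScr, n = 3) or a guide against Tgfbr2, the type II receptor of TGF-beta, in sets numbered sgTgfbr2_1 (n = 2) and sgTgfbr2_2 (n = 2), called line 1 and line 2 here. The labels do not say whether that number marks a guide, a clone or a culture. A second table held libraries labelled as tumor organoids with sgScr (n = 3) or sgTgfbr2 (n = 2). The third held tumor organoids with sgTgfbr2 given DMSO as vehicle (n = 3) or pinaverium bromide at 2 µM (PB, n = 3) after 72 h of culture. Pinaverium bromide is a calcium channel blocker. The sources used here give no strain, age or number of mice and no length of the drug exposure. The labels also leave unsaid whether replicates are separate cultures, and the p-values therefore measure a spread between libraries that may be technical.

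NF-kB is a family of dimeric transcription factors that waits in the cytoplasm, bound by IkB proteins. Signals from TNF, IL-1 and Toll-like receptors activate the IKK kinases, which mark IkB for destruction and free dimers such as RELA with the p50 product of Nfkb1 (the canonical arm). A slower arm through the kinase NIK, encoded by Map3k14, processes the Nfkb2 product to p52, which pairs with RELB (the noncanonical arm). The freed factor induces its own inhibitors and brakes, among them Nfkbia and Tnfaip3, so that a stimulus is followed by feedback. In squamous epithelia the system is known for its part in barrier defence and inflammation.

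Promoter sequences are shown because several of the 10 genes are known to be regulated by the factor they encode or restrain. Of the 10 genes, 7 were in the RefSeq promoter table used here (GRCm38.p6), with 10 windows that reach from 250 bases before to 50 bases after a start site. The kappaB consensus, a site of 10 bases, was searched on both strands. At least 1 match lay in 7 of the 10 windows, from 5 of the 7 genes (Nfkb2, Rel, Nfkbia, Nfkbie and Tnfaip3). Of these windows 3 belong to Nfkb2. Its windows at start sites 46305695 and 46305930 overlap, and the match GGGACTTTCC found in each is 1 and the same site. The windows are therefore not independent, and their share was not tested against that of all windows. Of all 32851 windows of 300 bases in that table, 4.51% held a match. No such letters lay in the windows of Birc3 and Icam1, which says nothing of the factor elsewhere. Nfkb1, Relb and Nfkbiz were not in the table. The stretches just before the start sites of 4 genes are given 5′ to 3′ on the gene's strand, with the matching bases in capitals. They are Nfkbia at chr12:55492648-55492797 (minus strand), Nfkbie at chr17:45555550-45555699 (plus), Rel at chr11:23770971-23771119 (minus) and, as one without a match, Icam1 at chr9:21015790-21015939 (plus).
Nfkbia: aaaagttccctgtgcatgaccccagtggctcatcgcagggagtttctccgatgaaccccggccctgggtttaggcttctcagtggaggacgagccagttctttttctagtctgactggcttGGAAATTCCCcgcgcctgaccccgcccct
Nfkbie: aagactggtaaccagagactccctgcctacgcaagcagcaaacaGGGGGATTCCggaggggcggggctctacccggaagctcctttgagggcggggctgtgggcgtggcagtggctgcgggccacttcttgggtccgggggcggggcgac
Rel: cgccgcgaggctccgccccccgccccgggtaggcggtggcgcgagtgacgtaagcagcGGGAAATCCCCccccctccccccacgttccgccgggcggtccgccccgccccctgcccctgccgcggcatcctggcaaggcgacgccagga
Icam1: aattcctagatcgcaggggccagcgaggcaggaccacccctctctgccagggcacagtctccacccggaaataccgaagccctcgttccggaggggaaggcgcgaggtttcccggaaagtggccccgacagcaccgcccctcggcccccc
The Nfkbia match lay on the opposite strand at bases -29 to -20 from the start site, and the Nfkbie match on the gene's strand at bases -106 to -97. In Rel 2 matches overlapped within the capitals. For Nfkb2 the match closest to the first start site was GGGGCTTTCC, at bases -11 to -2. For Tnfaip3 it was GGGGATTTCC, on the opposite strand at bases -12 to -3. A match is a description of letters and not a measured binding site.

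Each library held 14993749 to 21784140 counts, so that 3 counts stood for 0.138 to 0.2 CPM (a gene's counts divided by the library total and multiplied by 1000000). The targeted gene Tgfbr2 was counted in every library, at 179 to 219 CPM in premalignant sgScr and 86.2 to 131 in premalignant sgTgfbr2. In the tumor table it stood at 112 to 129 CPM with sgScr and 67.5 to 71.2 with sgTgfbr2. An edit can leave a transcript in place, and where the guide cuts is not stated in the labels, so these counts are a weak check of the guide. All 11 squamous epithelial markers were counted in all 18 libraries. The 5 libraries labelled tumor sgScr and tumor sgTgfbr2 stood apart from the vehicle libraries, although the labels give vehicle and tumor sgTgfbr2 libraries one stage and one genotype. A list of 12 muscle markers summed to 19045 to 19553 CPM in libraries of tumor sgScr, to 893 to 964 in those of tumor sgTgfbr2 and to 9.18 to 9.55 in vehicle. A list of 15 immune markers summed to 1366 to 1491, 960 to 993 and 41.1 to 46.2 CPM. A list of 11 columnar and gastric gland markers summed to 3.98 to 5.81, 30306 to 33618 and 1198 to 1214 CPM in the same order. A list of 10 fibroblast markers summed to 3161 to 3364, 2551 to 2629 and 0.716 to 0.788 CPM. Muscle, fibroblast and immune transcripts at these levels go against the label of cultured epithelial organoids for these 5 libraries, and whether they hold organoid cells alone was not tested. Every value of the tumor groups below, and every comparison with them, is read with that limit. Since the tables were deposited separately, no test compares levels across them.

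**Figure D1:**
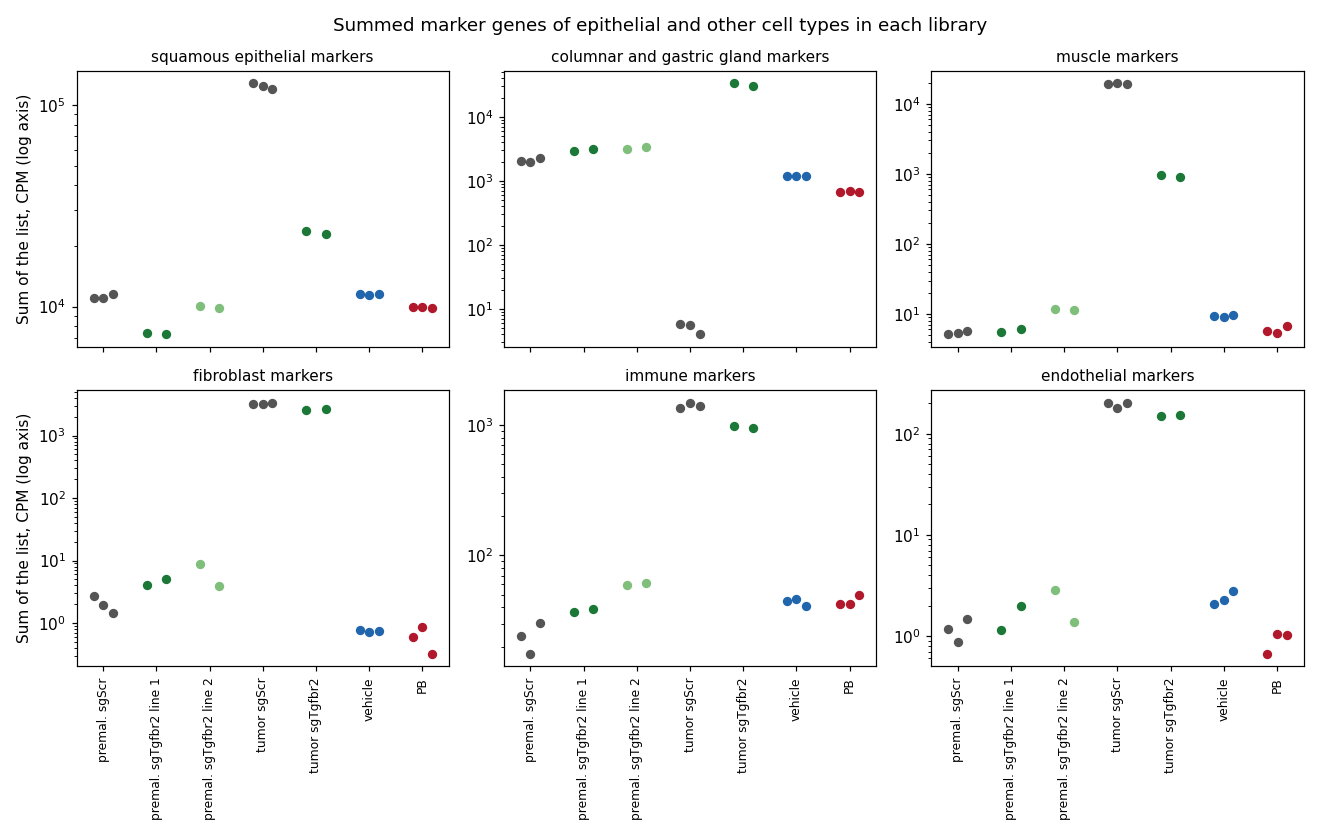
Summed CPM of 6 marker lists in each of the 18 libraries (points), by group, on log axes. The tumor sgScr and tumor sgTgfbr2 libraries lay above all other libraries in the fibroblast, immune, endothelial and muscle lists, and the columnar and gastric gland list reached 30306 to 33618 CPM in tumor sgTgfbr2 against at most 5.81 in tumor sgScr.

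In premalignant organoids, 9 of the 10 genes were higher with the Tgfbr2 guide than with the control guide and none was lower. The largest differences were those of the inhibitor-family genes Nfkbiz and Nfkbie and of the target Icam1, at 3.10, 2.39 and 2.33 times the control level. Each of the 4 subunit genes differed less than these, and Nfkb1 did not pass the threshold. The comparison asks what the Tgfbr2 guide changes in premalignant organoids. By edgeR's quasi-likelihood test (adjusted by Benjamini-Hochberg, threshold 0.05) 22.7% of all 13098 genes tested were called higher, and 23.5% were called lower. The median log2 fold change was 0.93 over the 10 genes and -0.00 over all genes tested. Since the 10 genes were chosen with earlier results of these data known, their share of calls is a description and not a test. No gene of the 10 was called lower at an unadjusted p of 0.05, and DESeq2 and limma-voom also called 9 higher and 0 lower. In bulk RNA, more transcript per cell and more cells of a type with that transcript cannot be told apart.

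Nfkbia encodes IkB-alpha, the inhibitor that is destroyed on stimulation and made again as the first feedback. Its annotated position is chromosome 12, 55489410 to 55492647, minus strand (GENCODE M21 on GRCm38, as for all positions here). It was counted at 271, 251 and 301 CPM in the sgScr libraries, at 591 and 582 in line 1 and at 512 and 501 in line 2. All 4 sgTgfbr2 libraries stood above all 3 sgScr libraries, as they did for 9 of the 10 genes and for 28.1% of all genes tested. The log2 fold change was 0.93 ± 0.10 (SE) with an edgeR adjusted p of 1.80e-04.

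Nfkbiz encodes IkB-zeta, a nuclear member of the family that acts as a cofactor at a set of target genes (chromosome 16, 55811375 to 55838899, minus strand). Its levels were 63.7, 51.0 and 61.1 CPM in sgScr, 242 and 254 in line 1 and 142 and 124 in line 2. The groups did not overlap, and the libraries of line 1 stood well above those of line 2. The log2 fold change of the pooled lines was 1.63 ± 0.25 (adjusted p = 0.00102, edgeR). Nfkbie encodes IkB-epsilon, a second feedback inhibitor with a slower course (chromosome 17, 45555703 to 45563169, plus strand). It was counted at 7.79, 6.56 and 9.46 CPM in sgScr, 26.8 and 23.5 in line 1 and 16.1 and 13.05 in line 2. The order of the groups was the same as for Nfkbiz, with a log2 fold change of 1.257 ± 0.25 (adjusted p = 0.00355, edgeR).

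Among the target genes, Icam1 encodes an adhesion molecule that binds leukocyte integrins (chromosome 9, 21015985 to 21028817, plus strand). Its levels were 169, 157 and 190.1 CPM in sgScr, 454 and 482 in line 1 and 404 and 339 in line 2, again with no overlap between the guides (log2 fold change 1.22 ± 0.12, edgeR adjusted p = 1.79e-04). Exons of the annotated gene Gm47079 on the other strand cover 11.7% of the exon bases of Icam1, and the strand setting of the counting is not given in the sources used here. Tnfaip3 encodes A20, a ubiquitin-editing enzyme that shuts off the pathway above the IKK kinases (chromosome 10, 19000910 to 19015657, minus strand). It was counted at 49.9, 42.3 and 57.2 CPM in sgScr, 92.9 and 96.5 in line 1 and 84.4 and 73.0 in line 2. Here too all sgTgfbr2 libraries lay above all sgScr libraries (log2 fold change 0.73 ± 0.12, edgeR adjusted p = 0.00140). Birc3 encodes cIAP2, a ubiquitin ligase of TNF receptor complexes that also protects cells from death (chromosome 9, 7848699 to 7873186, minus strand). Its levels were 17.5, 18.5 and 20.8 CPM in sgScr, 45.7 and 50.0 in line 1 and 29.7 and 25.4 in line 2 (log2 fold change 0.93 ± 0.23, edgeR adjusted p = 0.00888).

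Among the subunit genes, Rel differed most. It encodes c-Rel, a subunit best known from lymphocytes (chromosome 11, 23736847 to 23770970, minus strand), and was counted at 9.32, 5.83 and 9.21 CPM in sgScr, 14.7 and 16.5 in line 1 and 19.5 and 14.6 in line 2. Both lines lay above sgScr and overlapped each other (log2 fold change 0.95 ± 0.18, edgeR adjusted p = 0.00320). Relb, the noncanonical partner (chromosome 7, 19606217 to 19629438, minus strand), was counted at 49.0, 46.5 and 55.8 CPM in sgScr, 84.0 and 83.2 in line 1 and 66.4 and 56.5 in line 2. The second library of line 2 lay just above the highest sgScr library, and the log2 fold change was 0.46 ± 0.14 (adjusted p = 0.0249, edgeR). Nfkb2, which encodes p100 and p52 (chromosome 19, 46304320 to 46312385, plus strand), was counted at 141, 121 and 150.3 CPM in sgScr, 179.7 and 182 in line 1 and 167 and 158 in line 2. Its difference was small (log2 fold change 0.25 ± 0.09, edgeR adjusted p = 0.0429). Exons of AC114539.1 and Psd on the other strand cover 11.6% and 6.52% of its exon bases. Nfkb1, which encodes p105 and p50 (chromosome 3, 135584655 to 135691547, minus strand), was counted at 112, 104 and 110.1 CPM in sgScr, 138 and 136 in line 1 and 107 and 98.1 in line 2. Line 1 stood above sgScr and line 2 overlapped it, and the pooled log2 fold change was 0.07 ± 0.12 (adjusted p = 0.667, edgeR).

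The calls of Nfkb2 and Relb rested on few libraries. Leaving out either of sgScr replicates 1 and 2 or either library of line 1 ended both calls (adjusted p from 0.0519 to 0.174), and leaving out line 2 replicate 1 also ended that of Nfkb2 (adjusted p = 0.0512). With the sgTgfbr2 counts summed to 1 library per line and the 3 sgScr libraries left separate, 8 genes were called higher and Nfkb2 was not (edgeR adjusted p = 0.12). This does not treat libraries of an sgTgfbr2 line as independent, but it still does so for the sgScr libraries. The labels number no lines within sgScr, so a spread between control lines is not measured in any fit here.

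**Figure D2:**
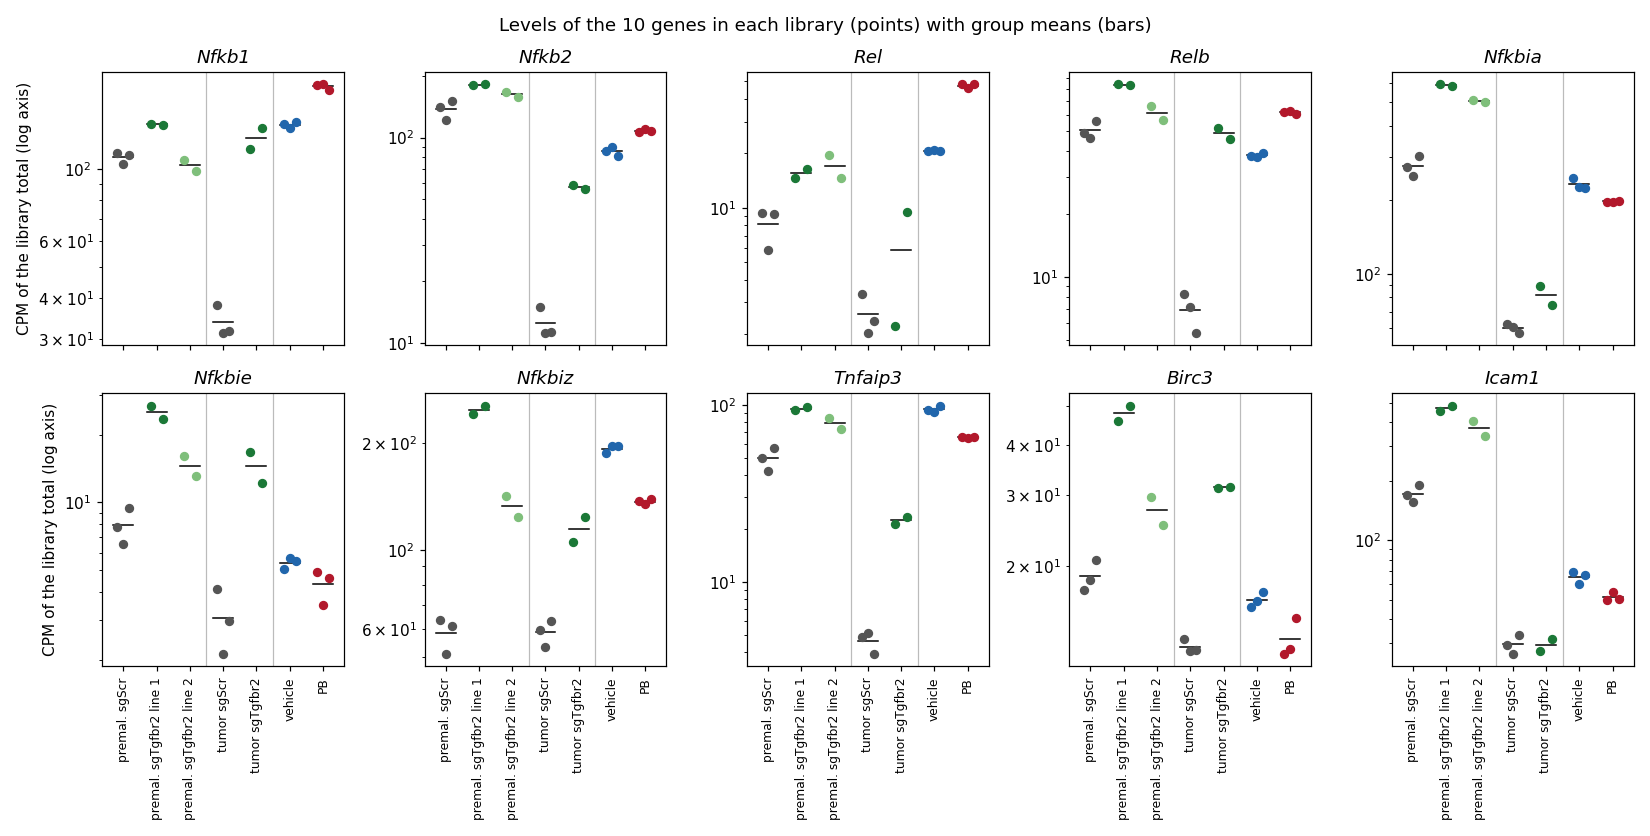
CPM of the library total for each of the 10 genes (log axes), with each library as a point and each group mean as a bar, and vertical lines between the deposited tables. In the premalignant table all sgTgfbr2 libraries lay above all sgScr libraries for each gene except Nfkb1, and 8 of the 10 genes had their lowest mean in tumor sgScr.

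Marker sums also moved with the premalignant groups, that of the immune list at low levels. The 15 immune markers summed to 17.6 to 30.3 CPM in sgScr, 36.8 to 38.6 in line 1 and 59.5 to 61.8 in line 2. Between 5 and 8 of the 15 had a count in a library. Most of the sum was Cd68, a lysosomal protein, at 13.3 to 25.7 CPM in sgScr, 31.2 to 32.1 in line 1 and 52.3 to 55.4 in line 2. Lyz2, Tyrobp, Cd3e and Cd8a were at 0 in all 7 premalignant libraries, and the leukocyte marker Ptprc reached at most 0.326 CPM. Other genes of the list moved. Cd74 had means of 1.39 CPM in sgScr, 4.54 in line 1 and 5.78 in line 2, and S100a9 had 2.63, 0.584 and 0.254. Of the 4 immune markers tested, 2 were called higher in sgTgfbr2 and 1 lower by edgeR. The immune sum was higher in line 2 than in line 1. For 9 of the 10 genes of the NF-kB system, every library of line 2 lay below those of line 1, as for 35.5% of all genes tested. Whether these levels are related to the immune sum was not tested. The columnar and gastric gland markers summed to 1961 to 2284 CPM in sgScr and 2961 to 3385 in sgTgfbr2. Nearly all of that was the keratins Krt8, Krt18 and Krt19. Their means were 202, 652 and 1250 CPM in sgScr, 411, 770 and 1873 in line 1 and 164, 1021 and 2091 in line 2. Krt8 was thus lower in line 2 than in sgScr. Muc6, the highest of the other genes of this list, had means of 0.254, 0.193 and 0.222 CPM in the same order of groups. The squamous epithelial markers summed to 11006 to 11529 CPM in sgScr, 7264 to 7424 in line 1 and 9808 to 10116 in line 2. Of these 11 genes, 3 were called higher in sgTgfbr2 and 5 lower by edgeR. The part of the marker sums in the results was not tested.

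The rest of the pathway was read from 5 lists of 101 further genes, chosen with earlier results of these data known. Their counts of calls are therefore a description and not a test. Among these lists the share of higher calls was largest in other known target genes, of which 20 were higher and 1 lower of 27 tested. They included the chemokines Cxcl10 (2.75 ± 0.23, log2) and Ccl5 (3.34 ± 0.44), the transcription factor gene Cebpd (1.45 ± 0.14) and Gadd45b (1.38 ± 0.19). The list's median log2 fold change was 1.38. Of 18 tested genes for receptors and ligands, 10 were higher and 2 lower (median 1.16). The cytokine Il1a rose by 2.54 ± 0.28 on the log2 scale, the receptors Cd40 by 2.83 ± 0.36 and Tlr4 by 0.97 ± 0.13, and the IL-17 receptor subunit Il17rc changed by -0.83 ± 0.09. Ccl5 and Cd40 had low control means, at 0.667 and 0.375 CPM in sgScr. Among other brakes of the pathway, 7 were higher and 2 lower of 11 tested (median 0.55), with the A20-binding protein gene Tnip3 at 1.64 ± 0.23, Zc3h12c at 1.14 ± 0.14, N4bp1 at 0.55 ± 0.11 and Commd1 at -0.76 ± 0.14. The IKK kinases, adaptors and ubiquitin ligases were called less uniformly, with 6 higher and 3 lower of 27 and a median of -0.03. The paracaspase gene Malt1 (1.20 ± 0.11), the kinase gene Ikbke (1.34 ± 0.19) and Birc2 (0.65 ± 0.11) were higher, and Ripk1 (-0.72 ± 0.09), a kinase at TNF receptors, was lower. Of the other 4 subunit and IkB genes Bcl3 was higher (0.35 ± 0.11), while Rela, the gene of the main canonical subunit, stood at -0.29 ± 0.12 and did not pass (adjusted p = 0.0667, edgeR).

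The lines differed from each other in these genes. Compared with line 1, line 2 was lower in 6 of the 10 genes and higher in none. This contrast was fitted on the 7 premalignant libraries with a mean for each line, and 13.1% of all 13438 genes tested were called lower and 13.2% higher. At an unadjusted p of 0.05, edgeR called 8 of the 10 lower and 0 higher, and DESeq2 and limma-voom each called 6 lower and 0 higher. Nfkbiz differed most, at 0.54 times the level of line 1 (log2 fold change -0.89 ± 0.10, edgeR adjusted p = 2.93e-05), followed by Birc3 (-0.79 ± 0.12, adjusted p = 3.20e-04) and Nfkbie (-0.78 ± 0.16, adjusted p = 0.00315). The subunit genes Relb (-0.44 ± 0.11, adjusted p = 0.00820) and Nfkb1 (-0.41 ± 0.09, adjusted p = 0.00340) and the target Icam1 (-0.33 ± 0.10, adjusted p = 0.0269) were also lower. The library values of line 2 lay below those of line 1 in 9 of the 10 genes, where 35.5% of all genes did. Nfkbia (-0.21 ± 0.09), Tnfaip3 (-0.26 ± 0.12), Nfkb2 (-0.15 ± 0.09) and Rel (0.15 ± 0.19) did not pass the threshold. The count of lower genes ranged from 2 without line 1 replicate 1 and 3 without line 2 replicate 2 to 8. Nfkbiz and Birc3 were called under every alternative run.

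Set against the same sgScr libraries, line 1 had all 10 genes higher, where 25.3% of all genes were, and line 2 had 7, where 27.7% were. These comparisons share their controls. In line 2 the 3 genes that did not pass were Nfkb1 (-0.15 ± 0.09), Nfkb2 (0.17 ± 0.10) and Relb (0.22 ± 0.11), all of them subunit genes. In line 1 they stood at 0.29 ± 0.08, 0.35 ± 0.09 and 0.69 ± 0.10. Rel was the member with nearly equal values, at 0.91 ± 0.19 in line 1 and 1.02 ± 0.20 in line 2. Nfkbiz, the highest in both, stood at 2.04 ± 0.10 and 1.12 ± 0.11. By the contrast of lines, 20 of 29 other target genes were lower in line 2 and 1 was higher, and of 20 receptors and ligands 10 were lower and 3 higher. The chemokine Ccl20 (-2.58 ± 0.10), the neutrophil chemokine Cxcl5 (-2.03 ± 0.11), the growth factor Csf3 (-1.998 ± 0.12), Nos2 (-2.38 ± 0.17), the receptor Il1r1 (-1.48 ± 0.16) and the ligand Tnf (-0.88 ± 0.11) were among the lower. Rela was lower as well (-0.39 ± 0.09).

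**Figure D3:**
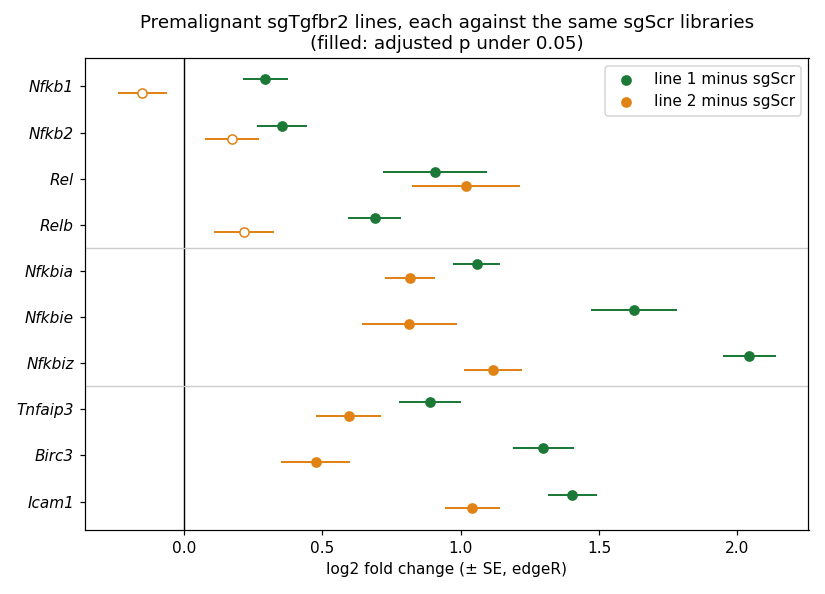
Log2 fold change of each of the 10 genes in line 1 and in line 2, each against the same 3 sgScr libraries, with bars for the SE by edgeR and filled points for an adjusted p under 0.05. Line 1 lay to the right of line 2 for 9 of the 10 genes, and Rel was the exception.

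In the tumor table, 7 of the 10 genes were higher in sgTgfbr2 than in sgScr and none was lower. Relb differed most, at 5.76 times the sgScr level, followed by Tnfaip3 at 3.91, Nfkbie at 3.88, Nfkb2 at 3.78 and Nfkb1 at 3.02 times. The inhibitor gene Nfkbia and the target Icam1, among the clearest in premalignant organoids, did not pass the threshold here. Of all 15091 genes tested, 29.8% were called higher and 30.5% lower by edgeR. No gene of the 10 was lower at an unadjusted p of 0.05, and DESeq2 and limma-voom each called 7 higher and 0 lower. The squamous epithelial markers summed to 119797 to 128481 CPM in sgScr and to 23018 to 23692 in sgTgfbr2. Their genes did not move as a class, since 5 of the 11 were called higher in sgTgfbr2 and 6 lower. Of the 12 muscle markers, 2 were called higher and 10 lower. The squamous sums and the muscle, fibroblast, immune and gastric sums given above moved with the groups, and their part in the member values was not tested. In CPM of the library total, the values of sgTgfbr2 lay above those of sgScr in 8 of the 10 genes, where 46.4% of all genes did. With the TMM scaling used for the tests Nfkbia overlapped, at 64.7 CPM in sgTgfbr2 replicate 2 and 67.2 in sgScr replicate 1. Icam1 then no longer overlapped, with sgTgfbr2 below sgScr. The median log2 fold change was 1.31 over the 10 genes and -0.02 over all genes.

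Relb was counted at 8.24, 7.14 and 5.405 CPM in the 3 sgScr libraries and at 51.7 and 45.9 in the 2 sgTgfbr2 libraries (log2 fold change 2.53 ± 0.20, edgeR adjusted p = 2.20e-10). Nfkb2 stood at 14.9, 11.2 and 11.3 CPM against 59.0 and 55.8 (1.92 ± 0.17, adjusted p = 2.42e-09), and Nfkb1 at 38.1, 31.4 and 31.7 against 115 and 133 (1.59 ± 0.14, adjusted p = 2.09e-09). In all 3 genes the groups lay far apart. Rel was counted at 3.33, 2.04 and 2.38 CPM in sgScr and at 2.22 and 9.45 in the 2 sgTgfbr2 libraries, so that one of these lay among the sgScr libraries and the other above them. Its log2 fold change of 0.88 ± 0.45 did not pass (adjusted p = 0.0984, edgeR). It was 1.55 (adjusted p = 4.96e-04) without sgTgfbr2 replicate 1 and -0.47 (adjusted p = 0.477) without replicate 2.

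Of the inhibitor genes, Nfkbie stood at 4.12, 2.13 and 2.97 CPM in sgScr and 16.7 and 12.2 in sgTgfbr2 (log2 fold change 1.96 ± 0.29, edgeR adjusted p = 5.87e-06). Nfkbiz stood at 59.7, 53.4 and 63.3 CPM against 105 and 124 (0.68 ± 0.13, adjusted p = 1.74e-04). Nfkbia was counted at 62.6, 60.7 and 57.6 CPM in sgScr and 89.4 and 74.5 in sgTgfbr2, with no overlap of the raw levels and a log2 fold change after scaling of 0.16 ± 0.14 (adjusted p = 0.350). The brake Tnfaip3 rose from 4.86, 5.14 and 3.92 CPM to 21.3 and 23.3 (1.97 ± 0.23, edgeR adjusted p = 1.28e-07). Birc3 rose from 13.2, 12.3 and 12.4 to 31.2 and 31.5 CPM (1.02 ± 0.18, adjusted p = 3.98e-05). In CPM of the library total Icam1 overlapped between the groups, at 29.6, 26.6 and 33.1 in sgScr and 27.4 and 31.7 in sgTgfbr2. With the TMM scaling used for the tests, sgTgfbr2 lay below sgScr, at 24.9 and 27.5 CPM against 31.7, 29.4 and 35.5. The log2 fold change of -0.30 ± 0.16 did not pass (edgeR adjusted p = 0.128).

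Scaling mattered in this table. With libraries scaled by their total alone, the median of all genes moved from -0.02 to 0.26 on the log2 scale, and the calls over all genes split into 6046 higher and 3361 lower, against 4492 and 4603 with TMM scaling. Under that scaling 9 of the 10 genes were higher, with Nfkbia at 0.44 (adjusted p = 0.0103) and Rel at 1.18 (adjusted p = 0.0323), and Icam1 at -0.01 did not pass (adjusted p = 0.967).

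Of the other known targets in the tumor table, 18 were higher and 4 lower of 28 tested, with the chemokines Cxcl5 (7.30 ± 0.34, log2) and Cxcl2 (6.70 ± 0.43), with Irf1 (1.67 ± 0.17) and Csf3 (4.58 ± 0.52). The sgScr means were 0.775 CPM for Cxcl5, 0.271 for Cxcl2 and 0.293 for Csf3, so these 3 ratios rest on low control counts. Of 25 receptors and ligands, 11 were higher and 2 lower, among them the TWEAK receptor gene Tnfrsf12a (2.32 ± 0.15), Il1b (3.62 ± 0.25) and the lymphotoxin receptor gene Ltbr (1.57 ± 0.14), which feeds the noncanonical arm, with Il17rc lower (-1.56 ± 0.15). Rela (1.32 ± 0.14) and Bcl3 (1.302 ± 0.17) were higher among the other 4 subunit and IkB genes, and none of the 4 was lower. The kinases, adaptors and ligases had 12 higher and 5 lower of 27, with Bcl10 (1.81 ± 0.13), Malt1 (1.87 ± 0.18), Sharpin (1.55 ± 0.16) and the IKK subunit Chuk (1.07 ± 0.15) higher. The other brakes split into 4 higher and 5 lower of 12, with Tnip3 (4.46 ± 0.36), Tnip2 (1.52 ± 0.19) and Tnip1 (1.10 ± 0.16) higher and Nlrc5 (-2.95 ± 0.32) lower. Tnip3 also had a low control mean, at 0.617 CPM in sgScr.

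**Figure D4:**
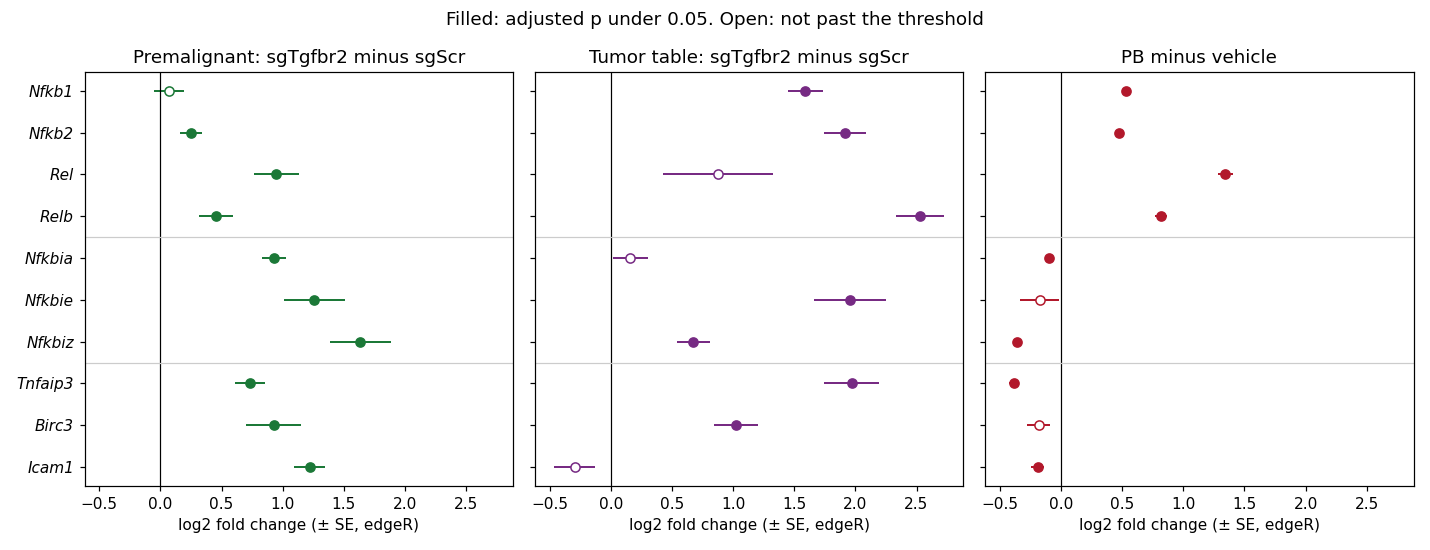
Log2 fold change of each of the 10 genes in the premalignant, tumor and PB comparisons, with bars for the SE by edgeR and filled points for an adjusted p under 0.05. Under PB the 4 subunit genes lay to the right of 0 and the other 6 genes to the left, whereas 9 of the 10 genes were called higher in the premalignant comparison and 7 in the tumor comparison.

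Under pinaverium bromide 4 of the 10 genes were higher than with vehicle and 4 were lower, shares near those over all genes. All 4 subunit genes were among the higher, led by Rel at 2.54 times, and 4 of the 6 inhibitor and target genes were lower, by at most 0.38 on the log2 scale. Nfkbie and Birc3 did not pass the threshold. By edgeR 36.5% of the 12801 genes tested were called higher and 36.8% lower, so that most genes were called in this comparison. Whether the direction goes with the role of a gene was not tested. In CPM of the library total, PB and vehicle did not overlap for any of the 10 genes, above in 4 and below in 6. Of all genes, 26.2% and 48.5% lay apart in these directions. With the TMM scaling used for the tests, Icam1, Nfkbie and Birc3 overlapped. Icam1 then stood at 57.7 CPM in PB replicate 2 and 57.3 in vehicle replicate 2.

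Rel was counted at 20.5, 20.8 and 20.5 CPM in vehicle and 48.2, 46.0 and 48.2 in PB (log2 fold change 1.34 ± 0.06, edgeR adjusted p = 6.39e-30). Relb was counted at 38.1, 37.8 and 39.5 CPM in vehicle and 61.8, 62.7 and 60.4 in PB (0.82 ± 0.05, adjusted p = 1.68e-23). Replicates of these genes lay close together, and the differences were many times that spread. Pairs of replicates were also compared by a chi-square per degree of freedom, which is near 1 for counting noise alone. It was 1.51 to 2.03 within vehicle and within PB. It was 6.42 to 21.3 within premalignant sgScr and within each line, and 9.91 to 17.9 within the tumor groups. The p-values under PB rest on this narrow spread. Whether the PB and vehicle replicates are separate cultures was not tested. Nfkb1 stood at 137, 134 and 139 CPM against 181, 182 and 174 (0.53 ± 0.03, edgeR adjusted p = 2.31e-25), and Nfkb2 at 85.8, 89.9 and 81.0 against 107, 110.2 and 107 (0.48 ± 0.04, adjusted p = 4.02e-18). Rela, which is not among the 10, was also higher (0.23 ± 0.04).

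The brake Tnfaip3 fell from 93.1, 90.4 and 98.6 CPM in vehicle to 65.9, 64.9 and 65.6 in PB (-0.38 ± 0.04, edgeR adjusted p = 6.28e-13). Nfkbiz fell from 187, 195 and 196 CPM to 137, 134 and 139 (-0.36 ± 0.03, adjusted p = 2.54e-17). These 2 were the largest decreases of the 10. Icam1 stood at 68.8, 60.1 and 66.4 CPM in vehicle and 50.0, 54.9 and 50.6 in PB (-0.19 ± 0.05, edgeR adjusted p = 4.59e-04). Nfkbia stood at 245, 226 and 224 CPM against 197, 196 and 198, a difference of -0.10 ± 0.03 (adjusted p = 0.00249), which was -0.05 and no longer called without vehicle replicate 1 (adjusted p = 0.101). Nfkbie was at 5.09, 5.66 and 5.49 CPM in vehicle and 4.94, 3.50 and 4.64 in PB (-0.17 ± 0.16, adjusted p = 0.327), and Birc3 at 15.9, 16.4 and 17.2 and 12.1, 12.5 and 14.9 (-0.18 ± 0.09, adjusted p = 0.0708). Birc3 was called lower without PB replicate 3 (-0.28, adjusted p = 0.0131).

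Scaling by library total moved the median of all genes under PB from -0.01 to -0.15 and the calls over all genes from 4666 higher and 4713 lower to 3301 and 6155. The direction of each of the 10 genes was the same under both scalings, with 4 higher and 5 lower, since Birc3 then passed (-0.32, adjusted p = 0.00155). Nfkbia at -0.10 and Icam1 at -0.19 with TMM scaling lay close to that shift in size. The columnar and gastric gland markers, of which 5 or 6 of 11 had a count in a library, summed to 1198 to 1214 CPM in vehicle and 677 to 689 in PB. In PB most of this sum was Krt18 and Krt19, at means of 440 and 225 CPM. The immune list gave 41.1 to 46.2 and 42.7 to 49.5 CPM, with Lyz2 and Tyrobp at 0 in all 6 libraries. The squamous epithelial list gave 11448 to 11594 CPM in vehicle and 9854 to 9944 in PB, with 5 of its 11 genes called higher and 5 lower. The part of these sums in the results was not tested.

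The further pathway lists were mixed under PB. Of 23 other known targets, 10 were higher and 9 lower, with Cxcl1 (-2.44 ± 0.05, log2) and Ier3 (-1.17 ± 0.03) lower and Gadd45b (1.54 ± 0.05) and Il23a (2.07 ± 0.09) higher. Of 17 receptors and ligands, 4 were higher and 8 lower. Tnf fell by 0.92 ± 0.07, Tlr3 by 0.82 ± 0.10 and Tlr5 by 2.78 ± 0.27 on the log2 scale, and Tnfrsf12a rose by 0.58 ± 0.03. The 12 other brakes split into 4 higher and 6 lower, from Zc3h12a, the gene of an RNase that degrades inflammatory transcripts, at -2.01 ± 0.09, to Zc3h12c at 0.88 ± 0.05, with the deubiquitinase gene Cyld (0.54 ± 0.04) and Tnip1 (0.69 ± 0.06) also higher. The kinases, adaptors and ligases had 10 higher and 10 lower of 26, with Tab2 (0.55 ± 0.03) and Bcl10 (0.59 ± 0.04) higher and Tradd (-1.05 ± 0.08) and Traf6 (-0.83 ± 0.06) lower. Nfkbib was higher (0.61 ± 0.08), and the other IkB-family genes Nfkbid (-1.42 ± 0.21) and Bcl3 (-0.27 ± 0.06) were lower.

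The effect of the Tgfbr2 guide differed between the tumor and the premalignant table in 7 of the 10 genes, 4 of them with a higher and 3 with a lower value in the tumor table. This was tested as a contrast of the 2 effects on 12 libraries, in which 25.0% of 15671 genes were called higher and 24.5% lower by edgeR. The effect was larger in the tumor table for Relb (2.07 ± 0.24, adjusted p = 4.06e-06), Nfkb2 (1.66 ± 0.17, adjusted p = 1.17e-06), Nfkb1 (1.51 ± 0.18, adjusted p = 6.15e-06) and Tnfaip3 (1.23 ± 0.21, adjusted p = 1.55e-04). It was smaller there for Icam1 (-1.52 ± 0.19, adjusted p = 7.24e-06), Nfkbiz (-0.96 ± 0.31, adjusted p = 0.0162) and Nfkbia (-0.78 ± 0.16, adjusted p = 9.15e-04). Nfkbie (0.70 ± 0.41), Birc3 (0.09 ± 0.29) and Rel (-0.08 ± 0.54) did not pass, and Rel was called lower without tumor sgTgfbr2 replicate 2 (-1.43, adjusted p = 0.0167). The muscle, gastric and squamous marker sums differ more between the tumor groups than between the premalignant groups, and the immune sum is higher with sgScr in the tumor table and with sgTgfbr2 in the premalignant table. Stage and the makeup of the tumor libraries therefore cannot be told apart here. The call of Nfkbiz was lost without tumor sgTgfbr2 replicate 1 (-0.88, adjusted p = 0.0726) and with scaling by library total (-0.74, adjusted p = 0.0707), as well as with the replicate number as a block (-0.93, adjusted p = 0.121). With that scaling the median of all genes was 0.20 instead of -0.03 and the calls over all genes were 4976 higher and 3058 lower, instead of 3924 and 3838.

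The other pathway genes split in the same contrast. Of 32 other known targets, 7 had a larger and 8 a smaller effect in the tumor table, with Csf1 (-3.60 ± 0.51, log2), Cebpd (-1.76 ± 0.21), Gadd45b (-1.83 ± 0.30) and Ripk2 (-1.44 ± 0.26) among the latter. Of 25 receptors and ligands, 6 were larger and 10 smaller, with Ltbr at 2.09 ± 0.17 and Tnfrsf12a at 2.47 ± 0.27, and with Cd40 at -4.40 ± 0.67 and Il1a at -2.24 ± 0.37. Ltbr, Tnfrsf12a and Cd40 encode receptors known to feed the noncanonical arm, and they went in both directions. The kinases, adaptors and ligases had 10 larger and 5 smaller of 27, among them Bcl10 (1.95 ± 0.20), Sharpin (1.72 ± 0.18), Ripk1 (1.34 ± 0.17) and Chuk (1.13 ± 0.16). Rela (1.61 ± 0.17) and Bcl3 (0.94 ± 0.18) had a larger effect there as well. Of 12 other brakes 3 were larger and 5 smaller, with Tnip3 at 2.82 ± 0.44, N4bp1 at -1.20 ± 0.17, Irak3 at -2.34 ± 0.40 and Zc3h12a at -2.05 ± 0.36.

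Side by side over the 7 groups, 8 of the 10 genes had their highest mean CPM in premalignant line 1, and Nfkb1 and Rel had it in PB. The lowest mean was in tumor sgScr for 8 genes, in premalignant sgScr for Nfkbiz and in tumor sgTgfbr2 for Icam1. Nfkbia fell in the order line 1, line 2, premalignant sgScr, vehicle, PB, tumor sgTgfbr2 and tumor sgScr, and no neighbours in that order overlapped. Rel had another order, with PB and vehicle first, then line 2 and line 1, premalignant sgScr, tumor sgTgfbr2 and tumor sgScr. Neighbours overlapped between the lines, between premalignant sgScr and tumor sgTgfbr2 and between the tumor groups. For Tnfaip3, line 1 and vehicle at the top overlapped, at 94.7 ± 2.54 and 94.0 ± 4.22 CPM (mean ± SD). The vehicle libraries and those of tumor sgTgfbr2, declared with one genotype, lay apart in these genes, with Nfkbia at 232 ± 11.2 (n = 3) against 82.0 ± 10.6 (n = 2) and Tnfaip3 at 94.0 ± 4.22 against 22.3 ± 1.46 CPM.

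Compared per length, as CPM per kilobase of annotated exons, Nfkbia was the most abundant of the 10 in every group, at 170.3 ± 15.7 in premalignant sgScr. Icam1 followed there at 39.5, Nfkb2 at 30.0, Relb at 12.99, Nfkbiz at 11.7 and Nfkb1 at 8.997. Tnfaip3 stood at 6.89, Birc3 at 3.77, Nfkbie at 2.61 and Rel at 1.09 CPM per kilobase. In the vehicle libraries Nfkbiz was second at 38.4, and in tumor sgTgfbr2 it was second at 22.9 CPM per kilobase.

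The genes most like Nfkbia over the 18 libraries were ranked by Pearson's r of log2(CPM + 1) among 10875 genes with a mean of at least 5 CPM. They were Klhl7 (r = 0.99), Tnfaip2 (0.98), Padi3 (0.98), Ehd4 (0.98) and Htr5b (0.98). Libraries of a group and of a table share their culture and deposit, so these values describe likeness over few independent points. Tnfaip2, a gene known to be induced by TNF, was also on the list of other targets, with a log2 fold change of 1.32 ± 0.25 in premalignant organoids, 0.18 ± 0.13 between the tumor groups (not past the threshold) and -0.41 ± 0.02 under PB (lower).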

How the data were processed

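The deposited tables hold raw read counts per gene, made by the authors with STAR 2.6.0a on mm10 and compared by them with DESeq2 1.26.0, per the submitters' processing notes. No source used here names the counting tool, its strand setting or the gene annotation. The 18 normalized columns and the authors' own comparisons in the 3 tables were not used. Each column was matched to a library by its name, and depth was 14993749 to 21784140 counts per library.

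Comparisons were fitted on the counts with edgeR 4.0.16 in R 4.3.3, each within its own table: filterByExpr with a minimum count of 10, TMM scaling and the two-sided quasi-likelihood F test, with Benjamini-Hochberg adjustment over all genes tested and a threshold of 0.05. Every p in the text is from this test unless another tool is named, and ± beside a log2 fold change is its standard error, from the fold change and F. The contrast of stages used the 24394 gene rows shared by the premalignant and tumor tables. The pooled sgTgfbr2 lines were 1 group of 4 libraries. DESeq2 1.42.0, limma-voom (limma 3.58.1), other scalings and filters, a replicate block and leaving out libraries were alternatives. The fits were tested on simulated data with 200 changed genes each. Of 2-fold changes, 70% were called in the premalignant fit, 74% in the line and tumor fits, 90% under PB and 31% in the contrast of stages. A gene that did not pass in that contrast may therefore still differ. False calls made up 3.54% (stages) to 8.29% (tumor) of the calls. The simulation drew the libraries of a group independently, without the spread between lines. Its 200 changed genes were also a far smaller share than the fits to the data called. The adjusted p depends on that share, so the recovery in the data may differ from these values.

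All 10 genes are reported in every comparison, and of each other pathway list up to 4 genes past the threshold with the smallest p. Rela, and Tnfaip2 beside Nfkbia, are given more often than that rule asks. The members and lists were chosen with earlier results of these data known.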

Additional observations from a re-analysis of the deposited data

Results flagged for a closer look

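The difference between the numbered premalignant sgTgfbr2 lines passed its test in 6 of the 10 genes, all with line 2 below line 1. The log2 differences (line 2 minus line 1) were -0.41 for Nfkb1, -0.44 for Relb, -0.78 for Nfkbie, -0.89 for Nfkbiz, -0.79 for Birc3 and -0.33 for Icam1, where 13.1% of all genes were lower.

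The effect of the Tgfbr2 guide differed between the tumor and the premalignant table in 7 of the 10 genes by the test of that difference. Of all genes tested in that contrast, 25.0% were called higher and 24.5% lower. On the log2 scale (tumor effect minus premalignant effect) the difference was 1.51 for Nfkb1, 1.66 for Nfkb2, 2.07 for Relb and 1.23 for Tnfaip3. It was -0.78 for Nfkbia, -0.96 for Nfkbiz and -1.52 for Icam1. The marker sums of squamous epithelium (119797 to 128481 CPM in sgScr, 23018 to 23692 in sgTgfbr2), muscle, fibroblasts, immune cells and gastric gland differed between the tumor groups, and their part in these values was not tested. Of the 11 squamous markers, 5 were called higher in sgTgfbr2 and 6 lower by edgeR. A rule for a library that stands apart in a member's level was applied only to the pooled premalignant sgTgfbr2 libraries, the single group of 4. It flagged none, but where the lines lie apart from each other it can hardly flag a library. Smaller groups were not checked by this rule.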

How the results depend on the processing

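The lowest level of a member, 2.04 CPM for Rel, lay well above the level of 3 counts, and precision was limited by the number of libraries, 2 to 4 a group. With TMM-scaled CPM, 26 of 70 group levels moved by more than their spread between replicates. DESeq2 and limma-voom gave the same counts of members called as edgeR in the 5 comparisons they were run on, which do not include each line alone against sgScr. The cause of the changes that follow was not tested.

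With counts summed per sgTgfbr2 line and the sgScr libraries left separate, 2044 genes were lower in the premalignant comparison instead of 3078. Nfkb1 stood at -0.15 in line 2 alone. Leaving out 1 library in turn gave 1954 to 3018 higher genes there and 7 to 9 members. For line 2 minus line 1 it gave 1448 to 5047 genes called (691 to 2519 higher, 757 to 2528 lower), 2 to 8 members lower, and Rel from -0.071 to 0.33. In the tumor table it gave Rel from -0.47 to 1.55 and Nfkbia from -0.0165 to 0.31. In the contrast of stages it gave Rel from -1.43 to 0.60, with positive values without premalignant sgScr replicate 2 (0.09), line 2 replicate 1 (0.03) and tumor sgScr replicate 1 (0.13), and Birc3 from -0.0487 to 0.24, with -0.000169 without line 2 replicate 1. Scaled by library total, Rel was 0.16 in that contrast. Without a filter on low counts Rel passed in the tumor table (0.87, adjusted p = 0.0348).

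The labels do not say that a replicate number marks a shared culture or day. Deviations of same-numbered PB and vehicle libraries had correlations of 0.0061, 0.0030 and -0.0095, and not every library correlated best with its own number. The correlations were 0.030 and -0.088 between sgScr and line 1, -0.014 and 0.128 between sgScr and line 2, 0.0078 between the lines, and -0.017 and -0.087 between the tumor groups, so the numbers were not taken to pair libraries. With the number as a replicate block, 5365 genes were called between the lines (2665 higher, 2700 lower), 8 members were lower there (Nfkbia and Tnfaip3 added, adjusted p = 0.0194 and 0.0104), and 6 were higher in the premalignant comparison, where Nfkb2, Relb and Birc3 lost their calls (adjusted p = 0.0588, 0.0674 and 0.0509). In the contrast of stages Nfkbiz lost its call (-0.93, adjusted p = 0.121).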
